A study of Mus musculus with 7 samples.

Results

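The immunity-related GTPases were followed as 7 genes of the deposited count table, picked by gene symbol out of 21878 genes. They were the regulatory members Irgm1, Irgm2 and Igtp and the effector members Iigp1, Tgtp1, Tgtp2 and Ifi47. The choice used no measured value, although it was made with earlier results of these data known. Messenger RNA had been sequenced from 7 tumours grown from B16F10, a pigmented mouse melanoma line, in female C57BL/6J mice. The Zelnorm group held 4 tumours from mice given the drug by mouth at 1.25 mg/kg every 2 days, and the control group (NC) held 3 tumours. Tegaserod, a serotonin receptor agonist, is sold as Zelnorm, and the labels use the letters MBZ for its group without explaining them. The libraries are called by their column names, MBZ_9, MBZ_11, MBZ_13 and MBZ_15 in the Zelnorm group and NC_5, NC_6 and NC_10 in the control group. Both groups share the same cell line and host strain, and each tumour is a mixture of melanoma cells with the cells of the host. Whether the libraries come from separate mice is not said in the labels, so p-values measure only the spread between these libraries, which may be technical.

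Immunity-related GTPases are large GTP-binding proteins that mouse cells make when interferon binds its receptor, above all interferon gamma. The effector proteins gather on the vacuoles in which intracellular microbes such as Toxoplasma gondii live and break them open. The regulatory proteins stay on the membranes of the cell's own organelles and hold the effectors inactive there, and autophagy conjugation proteins are needed for the effectors to load onto vacuoles. The series title names regulation of the immune microenvironment, and the comparison of Zelnorm with NC tumours addresses that question for these genes.

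On the GRCm38.p6 gene table of RefSeq the members lie in 3 places, of which 2 are on chromosome 11. Irgm1 (chromosome 11, 48865245 to 48871420), Tgtp1 (48985329 to 48992246), Tgtp2 (49057196 to 49064212) and Ifi47 (49076587 to 49096987) fall within 232 kb. Igtp (chromosome 11, 58199556 to 58207592) and Irgm2 (58214977 to 58222783) fall within 23.2 kb. Iigp1 lies apart from both groups.

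Because the members' levels moved together across libraries, their promoters were searched for letters bound by interferon-activated factors. The RefSeq promoter table, which gives 250 bases before and 50 bases after each start site, held 6 of the members. An interferon-stimulated response element was searched as GAAA, any 2 bases and GAAA, and a gamma-activated site as TTCNNNGAA, both on both strands. The second reads the same on either strand. Of these 6 promoters 5 held the first and 4 held the second, against 3.44% and 8.30% of all 32851 promoters in the table. Both were present in 4 promoters of members, against 0.454% of all promoters. Ifi47 had neither in this window. The stretches that hold the matches are shown because 4 of them carry the same arrangement. They run 5′ to 3′ on the strand of the gene, capitals mark the matched letters, and the stretches are chr11:48871415-48871470 (minus strand) for Irgm1, chr11:58214882-58214942 (plus) for Irgm2, chr11:58199491-58199551 (plus) for Igtp, chr11:48992294-48992354 (minus) for Tgtp1 and chr11:49064253-49064313 (minus) for Tgtp2.
Irgm1: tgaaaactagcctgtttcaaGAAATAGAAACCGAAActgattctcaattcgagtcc
Irgm2: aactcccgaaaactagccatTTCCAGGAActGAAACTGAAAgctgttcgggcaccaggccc
Igtp: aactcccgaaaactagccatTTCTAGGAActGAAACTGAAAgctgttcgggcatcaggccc
Tgtp1: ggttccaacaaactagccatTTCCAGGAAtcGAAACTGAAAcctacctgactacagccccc
Tgtp2: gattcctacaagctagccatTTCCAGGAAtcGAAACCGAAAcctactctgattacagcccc
In Irgm2, Igtp, Tgtp1 and Tgtp2 the gamma-activated site ended 2 bases before the response element. The whole promoters of Irgm2 and Igtp were 92.1% identical over 265 aligned bases, and those of Tgtp1 and Tgtp2 were 80.5% identical over 272. Irgm1 held 2 overlapping matches to the response element and no gamma-activated site. A match describes letters and does not show that a factor was bound.

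Tgtp1 and Tgtp2 are near-identical genes. Their longest reading frames, read from GENCODE M21 transcripts, differed at 4 of 1248 bases, and 80.0% of all stretches of 100 bases in the Tgtp1 transcript were also found in the Tgtp2 transcript. How the authors' counting split such reads is not given in the sources used here, so the separate counts of Tgtp1 and Tgtp2 are uncertain. No other pair of members was above 75.5% identical in its reading frames. Irgm2 and Igtp shared 1.93% of the stretches of 100 bases. The spans of Tgtp1 and Ifi47 overlap an uncounted long noncoding RNA gene (Gm42074) and an uncounted pseudogene (Gm12188), and the strand setting of the counting is not given in the sources used here.

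Libraries held between 16903598 and 19666598 counts, and a count of 3, the floor for detection, was worth 0.153 to 0.177 CPM (counts scaled to a fixed library size). Every member had at least 63 counts in every library and all 7 passed the filter on low counts. Values below are CPM scaled by TMM, a normalisation for library composition. The label of the cell line fits its markers, as the summed level of 8 pigment cell genes was 28121 to 30352 CPM in Zelnorm and 25975 to 29380.5 CPM in NC tumours. One library stood apart for these genes before any comparison. NC_10 was the lowest of all libraries for 7 of 7 members, and each member was between 4.50-fold (Irgm2) and 13.7-fold (Tgtp1) lower there than in the lower of NC_5 and NC_6. Fold changes of the members are therefore given with and without NC_10.

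Transcripts of all 7 GTPases were more abundant on average in the Zelnorm tumours, as were 50.2% of all tested genes. The members had log2 fold changes of Zelnorm over NC between 0.94 (Irgm1) and 1.22 (Tgtp1) and a median of 1.14, against a median of 0.00 over all 12997 tested genes. None passed the test. At an adjusted p under 0.05 in edgeR's quasi-likelihood test with Benjamini-Hochberg adjustment over all tested genes, 0 of 7 members were called, against a background of 4 genes or 0.0308%. At an unadjusted p under 0.05, 3 members (Irgm1, Irgm2 and Iigp1) were higher, where 6.94% of all tested genes were, and 0 were lower, where 3.38% were. DESeq2 called 0 members (0 at an unadjusted p under 0.05), while it called 1.01% of its genes as higher, and limma voom called 0. In limma voom 7 members were higher at an unadjusted p under 0.05, where 7.06% of all tested genes were.

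The regulatory genes were highest in the same libraries. Irgm1, whose product lies on the Golgi apparatus, lysosomes and mitochondria, had 276, 251, 169 and 176 CPM in MBZ_9, MBZ_11, MBZ_13 and MBZ_15, against 158, 150.2 and 32.1 CPM in NC_5, NC_6 and NC_10. MBZ_9 and MBZ_11 were high, NC_10 was low, and the groups did not overlap. Its mean was 218 ± 53.3 CPM in Zelnorm (SD, n = 4) and 113 ± 70.6 CPM in NC tumours (SD, n = 3). The log2 fold change of Irgm1 was 0.94 with an SE of 0.42 (edgeR adjusted p = 0.476), and SE follows ± for fold changes below. Irgm2, a regulator found on the Golgi apparatus, had 139, 145, 93.8 and 86.8 CPM in the Zelnorm libraries in the same order, against 69.1, 74.9 and 15.4 CPM in the NC libraries. Again the groups did not overlap, and the mean was 116 ± 30.2 CPM in Zelnorm and 53.1 ± 32.8 CPM in NC tumours. Irgm2 had the smallest p of the members (log2 fold change 1.13 ± 0.42, edgeR adjusted p = 0.381), which ranked 706 among all tested genes. Igtp, also known as Irgm3, is a regulator on the endoplasmic reticulum. It had 260.3, 243, 123.2 and 138 CPM in the Zelnorm libraries, against 122.9, 122 and 12.4 CPM in the NC libraries. MBZ_13 and NC_5 were all but level, and under another scaling (RLE) the groups of Igtp overlapped. Its log2 fold change was 1.16 ± 0.57 (edgeR adjusted p = 0.531).

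The effector genes shared the highest 2 libraries and the lowest one with the regulatory genes, while the order of the others varied. Iigp1, also called Irga6, is an effector that loads onto the vacuole of Toxoplasma, and its gene lies on chromosome 18 (60373616 to 60392634). It had 153.5, 154, 75.9 and 78.0 CPM in MBZ_9, MBZ_11, MBZ_13 and MBZ_15, against 64.2, 74.4 and 10.1 CPM in NC_5, NC_6 and NC_10. Its groups did not overlap, though MBZ_13 and NC_6 were close (log2 fold change 1.22 ± 0.52, edgeR adjusted p = 0.454). Tgtp1, the gene of the effector Irgb6, had 108, 89.9, 41.9 and 56.4 CPM in the Zelnorm libraries, against 43.5, 48.7 and 3.19 CPM in the NC libraries. Its copy Tgtp2 had 125, 123, 67.5 and 79.9 CPM in the Zelnorm libraries, against 60.1, 70.1 and 5.26 CPM in the NC libraries. In both, MBZ_13 lay below NC_6, so the groups overlapped. The log2 fold changes were 1.22 ± 0.61 for Tgtp1 and 1.14 ± 0.58 for Tgtp2 (edgeR adjusted p = 0.536 and 0.539), and 1.17 ± 0.61 when the counts of both were summed to 1 gene (edgeR adjusted p = 0.550). Ifi47, also called Irgd, had 109, 99.4, 59.3 and 58.3 CPM in the Zelnorm libraries, against 48.7, 65.6 and 8.75 CPM in the NC libraries. MBZ_13 and MBZ_15 lay below NC_6, and the log2 fold change was 0.99 ± 0.49 (edgeR adjusted p = 0.531).

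**Figure D1:**
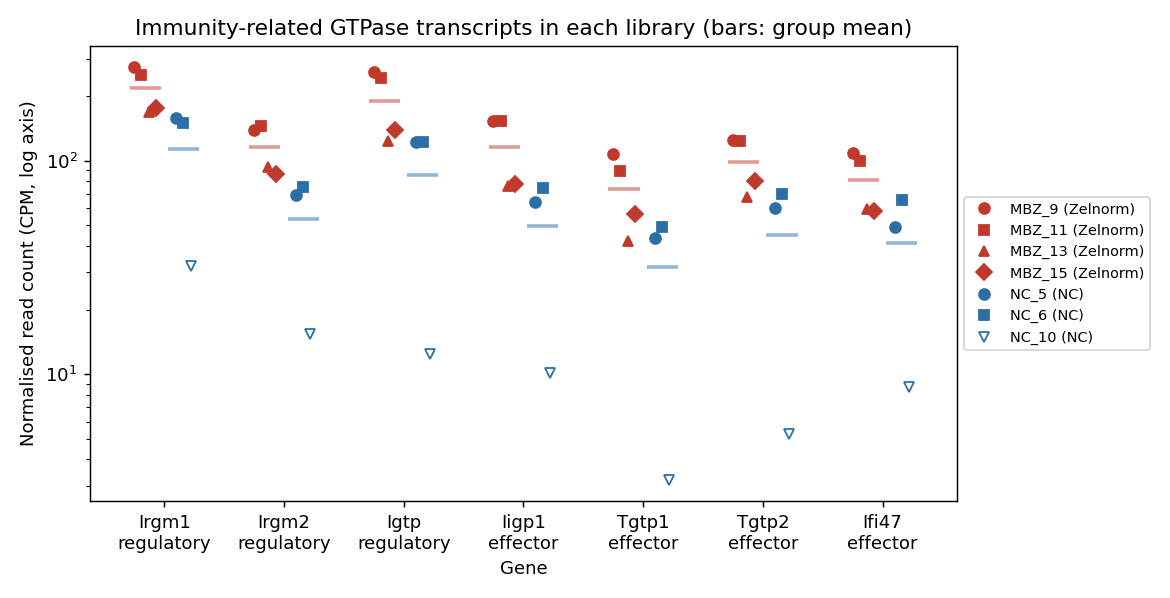
Normalised read counts (CPM, log axis) of the 7 GTPase genes in each library, Zelnorm in red and NC in blue, with horizontal bars for group means. NC_10 (open triangle) is the lowest library for every gene, and MBZ_9 and MBZ_11 are the highest 2.

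In all, the Zelnorm libraries lay wholly above the NC libraries for 4 of 7 members, where 5.33% of all tested genes did so, and wholly below for 0, where 4.27% did. The spread within groups was wide and shared by the members. MBZ_9 and MBZ_11 were the highest libraries for 7 of 7 members, and the lower of them exceeded the higher of MBZ_13 and MBZ_15 by between 1.43-fold (Irgm1) and 1.97-fold (Iigp1). MBZ_13 and MBZ_15 lay nearer to NC_5 and NC_6. Summed over the members, the level was 1170.2, 1105, 631 and 674 CPM in MBZ_9, MBZ_11, MBZ_13 and MBZ_15, against 567, 606 and 87.1 CPM in NC_5, NC_6 and NC_10.

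Leaving out NC_10 brought every fold change closer to 0 and narrowed its error. The median log2 fold change was then 0.64, with values from 0.50 ± 0.18 for Irgm1 to 0.73 ± 0.28 for Iigp1. The effector Ifi47 stood at 0.51 ± 0.25 and the regulator Irgm2 at 0.69 ± 0.19. Of the 7 members, 0 passed an edgeR adjusted p of 0.05 (adjusted p from 0.148 for Irgm2 to 0.492 for Ifi47), where 1.20% of 13111 tested genes were called higher. At an unadjusted p under 0.05, 6 of 7 were higher, where 8.37% of the tested genes were. Because NC_10 was the lowest library for every member, leaving it out could not change which members had groups that did not overlap. They were therefore the same 4 as before, where 11.5% of tested genes had every Zelnorm library above both remaining NC libraries. When any other single library was left out, the median ranged from 0.98 (without MBZ_9) to 1.495 (without NC_6).

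**Figure D2:**
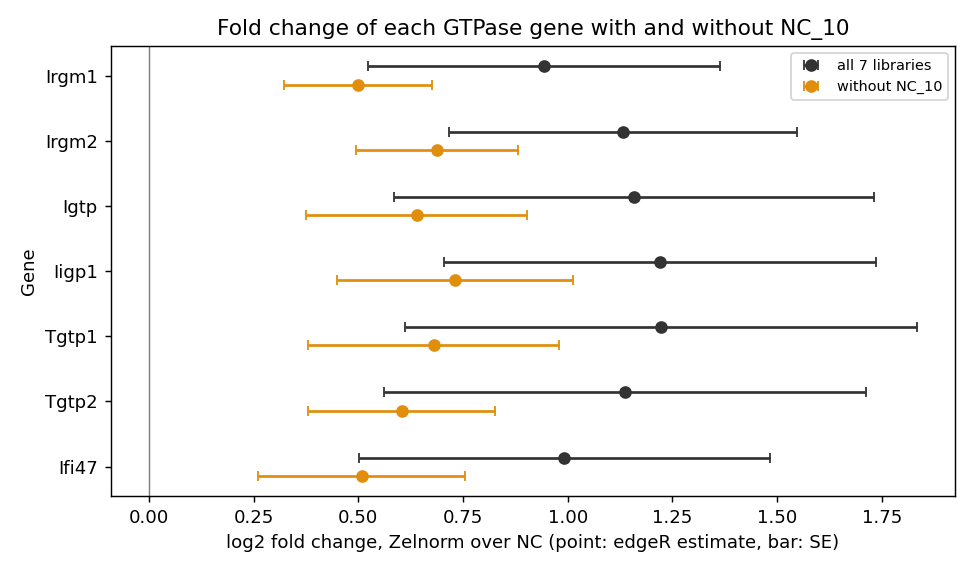
Log2 fold change of Zelnorm over NC for each GTPase gene, with points for edgeR estimates and bars for SE, from all 7 libraries (dark) and without NC_10 (orange). Each estimate is nearer to 0 without NC_10 and each stays above 0.

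Regulatory and effector genes kept similar proportions in most libraries. Effector members held 42.3%, 42.2%, 38.8% and 40.5% of the counts of the 7 genes in MBZ_9, MBZ_11, MBZ_13 and MBZ_15, against 38.2%, 42.7% and 31.3% in NC_5, NC_6 and NC_10. The share in NC_10, with a 95% Wilson interval from 29.2% to 33.6%, lay below the interval of every other library. The lowest of those intervals was that of NC_5, from 37.3% to 39.2%. Such intervals cover counting error only. The mean share was 40.9 ± 1.68% in Zelnorm (SD, n = 4) and 37.4 ± 5.72% in NC tumours (SD, n = 3), a difference smaller than the SD of the NC tumours. Without NC_10 the mean difference was 0.473 percentage points. In NC_10 the Tgtp genes were the most reduced, at 13.7-fold and 11.4-fold below the lower of the other NC libraries. Irgm1 (4.68-fold) and Irgm2 (4.50-fold) were the least reduced, and Igtp, a regulatory gene, was 9.86-fold lower there. Counts of Tgtp1 relative to Tgtp2 stood at 0.621 to 0.862 in Zelnorm and 0.606 to 0.724 in NC libraries.

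Levels of different genes were set side by side only per length, as CPM divided by the kilobases of the longest GENCODE M21 transcript paired with a RefSeq transcript of the gene. On this scale Irgm1 (96.5 ± 23.6 CPM per kb) and Igtp (94.5 ± 34.8) were the highest in Zelnorm tumours. Ifi47 followed at 45.9 ± 14.9, then Iigp1 at 36.9 ± 14.2, Tgtp2 at 35.2 ± 10.5, Irgm2 at 33.6 ± 8.73 and Tgtp1 at 26.2 ± 10.7 CPM per kb (SD, n = 4). The gap between Igtp and Ifi47 exceeded the SD of either gene, while all other neighbours in this order differed by less than their SD. In NC tumours the level per length ran from 50.2 ± 31.2 CPM per kb for Irgm1 to 11.3 ± 8.83 for Tgtp1 (SD, n = 3), and SDs there ran from 8.83 to 31.4 CPM per kb.

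Genes that act upstream of the GTPases were described by lists chosen with earlier results of these data known. Interferon gamma transcripts were few, with 6, 16, 3 and 3 counts of Ifng in MBZ_9, MBZ_11, MBZ_13 and MBZ_15, against 5, 2 and 0 in NC_5, NC_6 and NC_10. The 0 in NC_10 allows a level of up to 0.153 CPM. Of 12 genes of interferon gamma signalling 11 were tested, 11 were higher in Zelnorm and 0 passed an adjusted p of 0.05 (7 had an unadjusted p under 0.05 by edgeR, with 2 called by DESeq2). Their median log2 fold change was 0.69, and 0.35 without NC_10. Irf1, a transcription factor induced by interferon, had 118, 123, 67.2 and 80.3 CPM in the Zelnorm libraries, against 81.1, 80.3 and 18.6 CPM in the NC libraries. As with the GTPases, MBZ_9 and MBZ_11 were high and NC_10 was low. Socs1, a feedback inhibitor of the pathway, stood at 1.04 ± 0.29 on the log2 scale and Irf9, a subunit of the complex that binds the response element, at 0.56 ± 0.17 (edgeR adjusted p = 0.234 and 0.295), and DESeq2 called both.

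The 7 genes of type I interferon signalling summed to 362, 343, 378 and 330.04 CPM in MBZ_9, MBZ_11, MBZ_13 and MBZ_15, against 305, 306 and 290.3 CPM in NC_5, NC_6 and NC_10. The sum was highest in MBZ_13 and lowest in NC_10. Irf7, a master regulator of type I interferon genes, had 29.4, 27.8, 39.2 and 25.6 CPM in MBZ_9, MBZ_11, MBZ_13 and MBZ_15, against 16.9, 11.7 and 13.9 CPM in NC_5, NC_6 and NC_10. For Irf7, MBZ_13 was the highest library and NC_10 lay between the other NC libraries, whereas NC_10 was the lowest library for Stat2 (18.5 CPM) and Usp18 (6.93 CPM). Of 7 genes in this list 6 were higher and 0 were called by edgeR (4 at an unadjusted p under 0.05, and 2, Irf7 and Stat2, called by DESeq2), with a median of 0.19. Stat2 had a log2 fold change of 0.72 ± 0.12 and Irf7 one of 1.10 ± 0.16, each with groups that did not overlap (edgeR adjusted p = 0.0646 and 0.0559). Both passed in edgeR without NC_10 (Stat2 0.63 ± 0.12 and Irf7 1.09 ± 0.19, adjusted p = 0.0380 and 0.0262), and also with no filter, in the robust fit and without MBZ_15. Usp18, which dampens the type I receptor, stood at 0.78 ± 0.24 (edgeR adjusted p = 0.296).

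Guanylate-binding proteins, which are recruited to the same vacuoles, were also more abundant on average in Zelnorm tumours. Of 11 listed genes 9 were tested, 9 were higher, 0 were called by edgeR (7 had an unadjusted p under 0.05, with 1, Gbp9, called by DESeq2), and the median log2 fold change was 1.29. Without NC_10, 10 of the genes were tested and their median was 0.84. In that fit 2 genes passed, Gbp3 (0.76 ± 0.15) and Gbp7 (0.89 ± 0.17, edgeR adjusted p = 0.0380 for both), where 1.20% of all tested genes were called higher. Gbp2 had 173, 164, 69.8 and 101 CPM in the Zelnorm libraries, against 78.5, 90.2 and 14.5 CPM in the NC libraries, with overlapping groups.

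Among 12 further genes of the GTPase family and its relatives, 10 were tested, 9 were higher and 0 were called by edgeR (5 at an unadjusted p under 0.05, and 1, Gm4951, called by DESeq2). Their median was 1.25, and 0.81 without NC_10. Gm12250, the gene of the effector Irgb10, lies 9358 bases from Igtp and had 40.7, 43.9, 21.6 and 18.3 CPM in the Zelnorm libraries, against 16.6, 18.4 and 1.97 CPM in the NC libraries. It was high in MBZ_9 and MBZ_11 and low in NC_10, as its neighbours Igtp and Irgm2 were, but MBZ_15 and NC_6 were all but level and the groups overlapped (log2 fold change 1.34 ± 0.54, edgeR adjusted p = 0.431). Gm4951 stood at 1.27 ± 0.36, F830016B08Rik at 1.55 ± 0.52 and Gm4070 at 1.23 ± 0.47 on the log2 scale (edgeR adjusted p = 0.247, 0.334 and 0.397). By contrast the 10 autophagy conjugation genes had a median log2 fold change of 0.03 with 0 called by edgeR (1, Atg16l1, with an unadjusted p under 0.05, DESeq2 0). Atg16l1, part of the complex that attaches ubiquitin-like proteins to membranes, stood at 0.17 ± 0.07, Atg12 at 0.20 ± 0.10 and Gabarapl1 at 0.07 ± 0.06. The 7 genes of vacuole ubiquitin and adaptors had a median of 0.03, and 0 were called by edgeR (1 at an unadjusted p under 0.05). That gene, the ubiquitin ligase Trim21, stood at 0.80 ± 0.18 (edgeR adjusted p = 0.152) and was called by DESeq2, whereas Ube2n stood at 0.06 ± 0.06 and Traf6 at -0.08 ± 0.08.

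Genes close to the members on the chromosome did not all share their pattern. Within 100 kb lay 23 other counted genes, 17 of them tested, and edgeR called 0 of them. Rack1, Trim41 and Trim7 lie before Irgm1, and their log2 fold changes were -0.14 ± 0.07, -0.16 ± 0.06 and 0.05 ± 0.11. Before Igtp lie Cnot8 (0.04 ± 0.06), Gemin5 (0.05 ± 0.06) and Mrpl22 (-0.15 ± 0.08), and past Irgm2 lie Zfp692 (0.08 ± 0.17) and Zfp672 (-0.04 ± 0.10). Gemin5 had 102 CPM in NC_10 and at least 109 CPM in each of the other libraries, so it was not low there to the degree of Igtp. Between Irgm1 and Tgtp1, Gm12185 had a log2 fold change of 1.35 ± 0.63, the proteasome activator gene Psme2b, whose span overlaps 9930111J21Rik1, one of 0.57 ± 0.28 and Gm5431 one of 0.94 ± 0.40. F830016B08Rik, described above, lies near Iigp1, and Smim3 on its other side had a log2 fold change of 0.89 ± 0.53. The remaining tested neighbours, 9930111J21Rik1, Olfr56 and Btnl9, averaged at most 2.97 CPM in either group.

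Likeness to the members was measured as the root mean square difference, over 7 libraries, between a gene's log2 CPM and the mean profile of the members, each centred on its own mean. Among 11122 other genes the 5 closest were Gbp6 (0.14), Gbp2 (0.21), Psmb9 (0.22), Prph (0.30) and Nlrc5 (0.31), where the median over those genes was 1.24. The members themselves lay at 0.09 (Iigp1) to 0.33 (Tgtp1) from their own mean. Psmb9 encodes an immunoproteasome subunit, Nlrc5 an activator of class I antigen presentation genes, and Prph the intermediate filament peripherin. Prph had 19.4, 22.7, 11.3 and 14.2 CPM in the Zelnorm libraries, against 9.80, 10.3 and 2.28 CPM in the NC libraries (log2 fold change 1.18 ± 0.41, edgeR adjusted p = 0.348). The drop in NC_10 was uncommon among genes. Of 11456 tested genes whose mean log2 CPM was 1 or more, 20 had less than 0.25 times the CPM of both other NC libraries there, a rule set after the values were seen. They were the 7 members, 4 guanylate-binding proteins (Gbp2, Gbp4, Gbp6 and Gbp10), 3 further family genes (Gm12185, Gm12250 and Gm4841), and Irf1, Nlrc5, Psmb9, Apol9a, Apol9b and Prph.

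**Figure D3:**
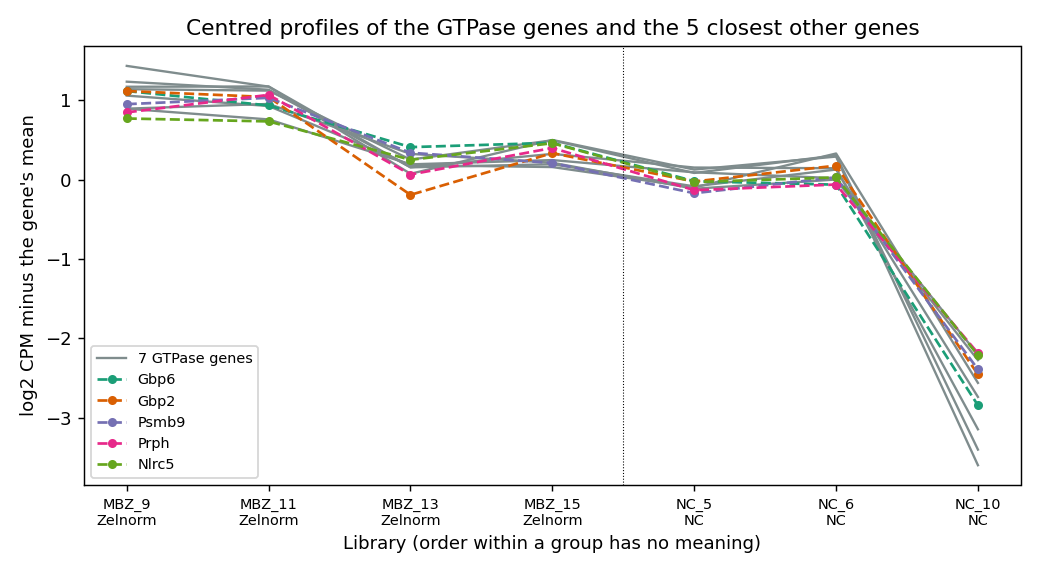
Log2 CPM of each gene minus its mean over the 7 libraries, for the GTPase genes (grey) and the 5 closest other genes (coloured, dashed), with Zelnorm libraries left of NC libraries. All lines are highest in MBZ_9 and MBZ_11 and drop below -2 in NC_10.

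Markers of other cell types differed between the libraries as well, and in bulk tissue fewer cells of a type and less RNA per cell cannot be told apart. Summed over 7 T cell genes the level was 19.3, 20.5, 9.23 and 8.79 CPM in MBZ_9, MBZ_11, MBZ_13 and MBZ_15, against 8.40, 7.63 and 3.74 CPM in NC_5, NC_6 and NC_10. In this sum MBZ_9 and MBZ_11 were high and NC_10 low, as for the GTPases, and no T cell marker was at 0 in any library. The sum fell less in NC_10 than that of the GTPases (87.1 CPM, against 567 CPM in NC_5). NC_10 was not the lowest library for Cd4 (0.759 CPM, against 0.501 in NC_6) or Cd2 (0.657 CPM, against 0.508 in MBZ_15). It was the lowest for the other T cell genes, with as few as 4 counts. The 7 T cell genes were all higher in Zelnorm and 0 were called by edgeR (2 at an unadjusted p under 0.05, and 1 called by DESeq2). Macrophage and pan-leukocyte markers had another order. The 10 macrophage genes summed to 523, 774, 533 and 644 CPM in the Zelnorm libraries, against 297, 272 and 577 CPM in the NC libraries. The 10 pan-leukocyte genes summed to 364, 428, 255 and 317 CPM in the Zelnorm libraries, against 206, 191 and 286 CPM in the NC libraries. NC_10 was thus the highest NC library for both lists and the lowest library for the GTPases. All 10 genes of each list were higher in Zelnorm on average and edgeR called 0 (7 macrophage and 9 pan-leukocyte genes at an unadjusted p under 0.05, with 1 and 6 called by DESeq2). Without NC_10, edgeR called 9 of 10 macrophage genes, 4 of 10 pan-leukocyte genes and 0 of 7 GTPases. It also called 4 of 6 fibroblast genes and 0 T cell or endothelial genes, where it called 1.23% of all tested genes. In that edgeR fit 6 of the 7 GTPases had an unadjusted p under 0.05. With the pan-leukocyte level as a covariate in edgeR the members' median log2 fold change was 1.51, and 0 members were called (adjusted p from 0.872, and 0 at an unadjusted p under 0.05).

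**Figure D4:**
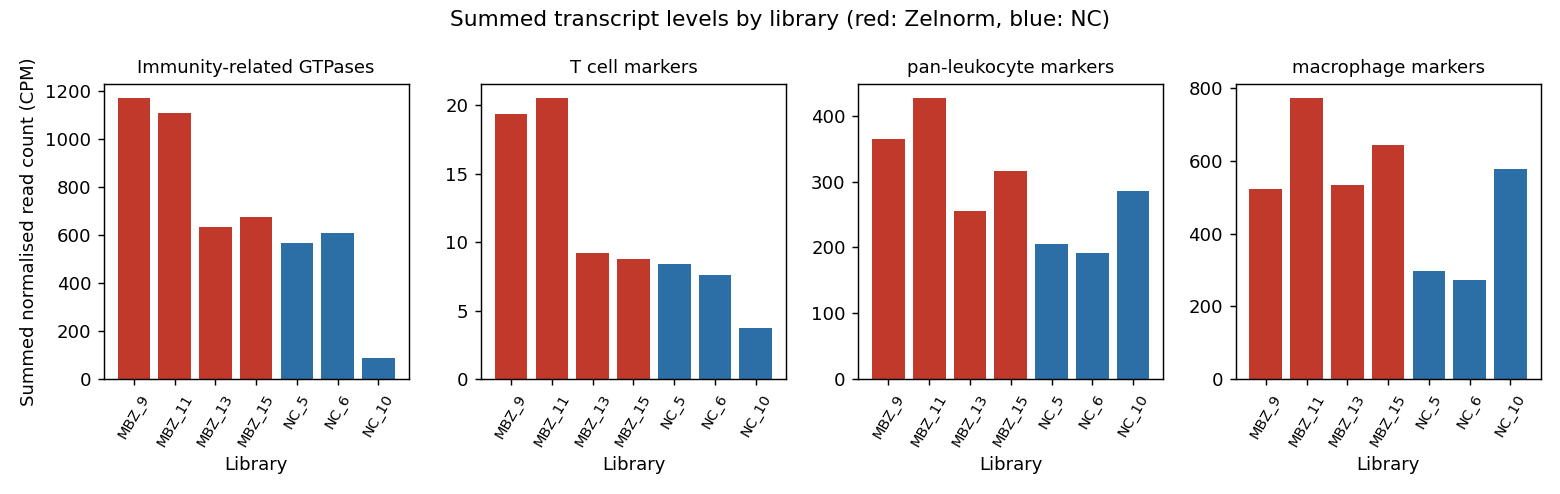
Summed CPM per library for the 7 GTPase genes and for T cell, pan-leukocyte and macrophage markers, each panel with its own axis from 0, Zelnorm in red and NC in blue. The GTPase and T cell sums are lowest in NC_10, at 87.1 and 3.74 CPM, while the other marker sums in NC_10 exceed those of NC_5 and NC_6.

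Natural killer genes (6) summed to 11.6, 9.18, 4.28 and 5.13 CPM in MBZ_9, MBZ_11, MBZ_13 and MBZ_15, against 5.42, 4.85 and 3.69 CPM in NC_5, NC_6 and NC_10, with Ncr1 at 0 in at least 1 library. In this sum MBZ_9 and MBZ_11 were the highest and NC_10 the lowest, as in the sums of the GTPases and the T cell genes. Single genes differed. NC_10 was the lowest library for Nkg7 (0.860 CPM) and Prf1 (0.961 CPM), but not for Klrk1 or Klrb1c. It was the highest library for Gzma (0.809 CPM) and for Ncr1 (0.253 CPM, from 5 counts). The B cell gene Cd79a had 3.22, 2.96, 1.86 and 1.78 CPM in the Zelnorm libraries, against 1.57, 1.56 and 2.23 CPM in the NC libraries. Cd79b, its partner in the B cell receptor, had 1.09, 1.24, 0.675 and 0.356 CPM in the Zelnorm libraries, against 0.379, 0.668 and 0.354 CPM in the NC libraries. Both were highest in MBZ_9 and MBZ_11, and NC_10 was the highest NC library for Cd79a and the lowest library for Cd79b. Endothelial genes (6) summed to 179 to 217 CPM in Zelnorm and 153 to 261 CPM in NC libraries, with NC_10 the highest of all libraries. Fibroblast genes (6) ranged from 817 to 1499.8 CPM in Zelnorm libraries. In NC libraries they stood at 450.1, 501 and 1165 CPM in NC_5, NC_6 and NC_10. Skeletal muscle genes (8) ranged from 6.02 to 304 CPM in Zelnorm and from 5.92 to 38.2 CPM in NC libraries, with MBZ_15 the highest. The part of any of these cells in the GTPase levels was not tested.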

How the data were processed

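Raw counts of reads per gene, in 1 table with a column for each library, are what the authors deposited. The submitters' processing notes name Trimmomatic, HISAT2, Cufflinks, HTSeq and DESeq, with GRCh38 and GRCm38 as builds, and give neither versions nor roles. Per the labels' protocols the libraries were made with a stranded mRNA kit, and the sources used here give no counting settings. Column names give the group of a library but no replicate number.

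Symbols turned into dates (27) were restored from the GeneID. Genes were filtered with filterByExpr (12997 kept), scaled by TMM (factors 0.986 to 1.01) and compared with edgeR 4.0.16 in R 4.3.3 (quasi-likelihood test, Benjamini-Hochberg adjustment over all tested genes, threshold 0.05). The SE was derived from the F statistic, and log2 CPM used a prior count of 2. DESeq2 1.42.0 and limma 3.58.1 served as alternatives, beside RLE and upper-quartile scaling, other filters, a robust fit, a leukocyte covariate, summed Tgtp counts and leaving out each library. The tests were tried on simulated counts. Figures used matplotlib 3.10.9. Members, gene lists and the rule for named genes (the members, the 3 list genes of smallest p, neighbours within 100 kb and the 5 closest profiles, with Ifng, Irf1, Gm12250 and Gbp2 always) were chosen with earlier results of these data known. Some genes that the rule or the lists hold are not reported here.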

Additional observations from a re-analysis of the deposited data

Results flagged for a closer look

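Among 52 sets of 4 Zelnorm values examined (the members, the named genes, the marker sums and the summed GTPase measures), 1 had a library far from the others, and chance alone gives about 1 in 20. The summed level of 5 keratinocyte genes was 16.05 CPM in MBZ_11, against 1.07 to 3.10 CPM in the other Zelnorm libraries and 2.22 to 2.68 CPM in NC libraries. MBZ_11 was also 1 of the 2 libraries highest in the GTPases, and without it their median log2 fold change was 1.01 with 0 members called. No GTPase gene was set apart in this way within the Zelnorm group. The NC group, with 3 libraries, was not examined by this rule, so the low NC_10 values were not put to it.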

How the results depend on the processing

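In every alternative run the members called numbered 0 of 7 (0 of 6 with Tgtp1 and Tgtp2 summed), also at an adjusted p under 0.1, and every member kept a positive log2 fold change. Their median was 1.14 in the edgeR fit, 1.60 in limma voom, 1.72 with quality weights and 0.64 (without NC_10) to 1.495 (without NC_6) when each library was left out, with 1.51 under the leukocyte covariate. The number of genes called among all tested was 4, and 34 without a filter, 206 in DESeq2, 21 in the robust edgeR fit, 32 at an adjusted p under 0.1 and 0 with the leukocyte covariate (739 at an unadjusted p under 0.05). It ran from 0 without NC_5 (977 at an unadjusted p under 0.05) to 161 without NC_10, with 21 without MBZ_15. Genes called among the 6 pathway lists numbered 0, and 2 without a filter, 7 in DESeq2, 2 in the robust fit, and 0 to 4 when each library was left out, highest without NC_10. The number of members with every Zelnorm library above every NC library was 4, where 5.33% of all tested genes were so. It was 3 with RLE scaling and 4 to 6 when each library was left out, with 4 without NC_10, where 11.5% of tested genes were so. Leaving out a library can only add such genes, and the share over all genes was not computed for the other runs. The difference in effector share was 3.51 percentage points and ran from 0.473 without NC_10 to 6.15 without NC_6. The cause of these changes was not tested. No paired analysis was possible because the columns carry none of the replicate numbers in the titles. The 3 NC libraries, of which NC_10 was up to 13.7-fold lower in a member, limit these comparisons.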
